A study of Mus musculus with 6 samples.

Results

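The Rab small GTPases were measured in colon epithelium with and without the Wnt co-activators BCL9 and BCL9L. All genes with 1 symbol in the annotation of the Affymetrix mouse genome array that reads Rab, a number and at most 1 letter were taken, which gave 59 genes of 18194 measured and 132 probe sets of 45101. A probe set is a group of short probes whose signals are summarised to 1 value. Symbols with anything more, such as Rab11fip5 or Rab3gap1, were not members. The family was chosen from a measured value: Rab30 had drawn attention because its reading was low in the knockouts, and the other 58 genes came in by name alone. The contrast of Rab30 is therefore given as a description, without a test.

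The knockout arrays came from vil-Cre-Bcl9-/-/Bcl9l-/- mice and the controls from wildtype mice, all aged 12 weeks, on a background mixed from 129SvEv/C57BL/6/DBA/2. The villin promoter of vil-Cre is active in intestinal epithelium, and Cre is named only for the knockouts, so Cre itself and loss of the co-activators cannot be told apart. Each group had 3 arrays. The knockout pools (replicates 1, 2 and 3) held 3, 2 and 2 mice and the wild-type pools (replicates 4, 5 and 6) held 3 mice each. Sheets of epithelium were released with EDTA and not sorted. Values are log2 expression, and arrays have no read depth, so their number limits the precision.

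Rab proteins are molecular switches that cycle between a GDP-bound and a GTP-bound form and mark the membranes on which vesicles form, move and fuse. Exchange factors switch them on, GTPase-activating proteins switch them off, and effectors such as tethers and motor adaptors bind the active form. Intestinal epithelium depends on them to sort cargo between its apical and basolateral faces: RAB8A and RAB11A with the motor myosin Vb deliver proteins to the brush border, and RAB17 and RAB25 are epithelial Rabs of the recycling endosome.

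The sample was epithelial by its markers. All 10 epithelial markers (among them Epcam, Cdh1, Krt8 and Vil1) lay above the array median in every wild-type array, and their summed level (log2 of the sum) ran from 16.13 to 16.18 over the knockout arrays and from 16.14 to 16.19 over wild type. Other cells were present to differing degrees. The summed level of 8 B and plasma cell markers reached 12.02 in wild type 6, while the other 5 arrays gave 8.44 to 9.52. Wild type 6 was also highest for 9 T cell markers (10.04, while wild type 4 and 5 gave 9.25 and 9.12 and the knockouts 8.64 to 9.10) and for 6 fibroblast markers (9.79, against 7.67 to 9.0 elsewhere). Of the 59 Rab genes, 21 were lowest in wild type 6, or 35.6%, beside 30.8% of all genes. Results that this array bears on are given with and without it.

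Rab30 encodes a Rab of the Golgi. Its brightest probe set read 4.18, 4.43 and 4.23 in the knockouts and 5.37, 5.17 and 5.12 in wild type. All 3 knockout arrays lay below all 3 wild-type arrays, and the gap between the groups was larger than the range within either. The means were 4.28 ± 0.13 and 5.22 ± 0.13 (SD, n = 3 each), a difference of -0.94 on the log2 scale, or 1.92-fold lower in the knockouts. This is the value that led to the family and it supports nothing further. Leaving out each array in turn gave -1.02 to -0.87, and -0.99 without wild type 6.

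The other Rab30 probe set did not show this difference. It read 2.42, 2.82 and 2.75 in the knockouts and 2.55, 2.81 and 2.79 in wild type. The means differed by -0.05 (95% interval -0.41 to 0.31). The groups overlapped fully, and the readings stood at only percentiles 5.0 to 9.4 of the wild-type arrays. The brightest Rab30 probe set was itself below the middle of the array, at percentiles 44.0 to 48.8 in wild type. No detection call was available here, so neither is shown to be above background. The mean of both probe sets differed by -0.50.

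No Rab gene passed the test between genotypes. Taking each gene by its brightest probe set, limma called 0 of the 59 Rab genes at an adjusted p under 0.05, beside 0 of all 18194 genes (0%), and the smallest limma adjusted p among the 58 other members was 0.953 (0.338 to 1 over the alternatives tried, lowest without wild type 6). At an unadjusted level of 0.05, leaving Rab30 aside, 2 of the 58 other Rab genes were lower, namely Rab37 and Rab20 (2.02% of all genes), and 0 higher (2.69% of all genes); nothing is read from these counts. Over single probe sets limma called 0 of 132, beside 0% of all probe sets. In unsorted tissue, fewer cells of a type and less RNA per cell cannot be told apart in any of these values.

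**Figure D1:**
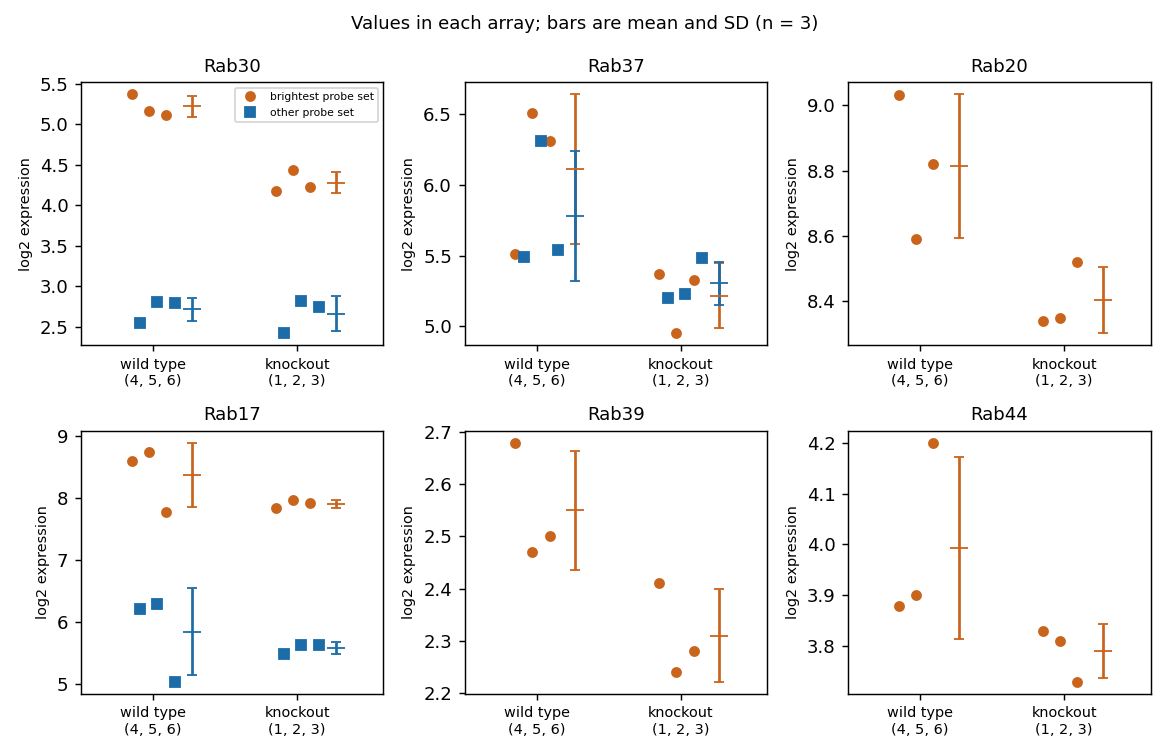
Log2 expression of 6 Rab genes in each wild-type (4, 5, 6) and knockout (1, 2, 3) array, with the mean and SD (n = 3) beside the points; circles are the brightest probe set and squares the other one. The circles of Rab30 lie at 5.12 to 5.37 for wild type and 4.18 to 4.43 for the knockouts while its squares overlap, and wild type 6 of Rab17 (7.77) lies below the knockouts (7.84 to 7.96).

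Across the family the differences were small and went both ways. Of the 59 genes, 29 differed above 0 and 30 below, with a median of -0.010, beside a median of 0.010 over all genes. The median size of a difference, whatever its sign, was 0.084 in the Rab genes and 0.115 in all genes. The 95% interval lay within a 2-fold change either way for 55 of the 58 Rab genes other than Rab30, or 94.8% (91.1% of all genes). It lay within 1.5-fold for 42, or 72.4% (65.6% of all genes). The 3 genes whose interval reached past 2-fold were Rab37, Rab17 and Rab38.

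The ranges of the groups were apart for 5 Rab genes, each lower in the knockouts: Rab20, Rab30, Rab37, Rab39 and Rab44. That is 8.47% of the members, where 4.83% of all genes were lower without overlap. On the higher side there were 0 Rab genes, where the share of all genes was 5.50%. Since the contrast of Rab30 was used to choose the family, nothing is read from these counts. Without wild type 6 the count was 11 lower (13.3% of all genes) and 2 higher (8.98% of all genes). Rab17, Rab18, Rab27b, Rab33b, Rab40b and Rab9b then joined the lower side, and Rab22a and Rab4b made up the higher side.

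**Figure D2:**
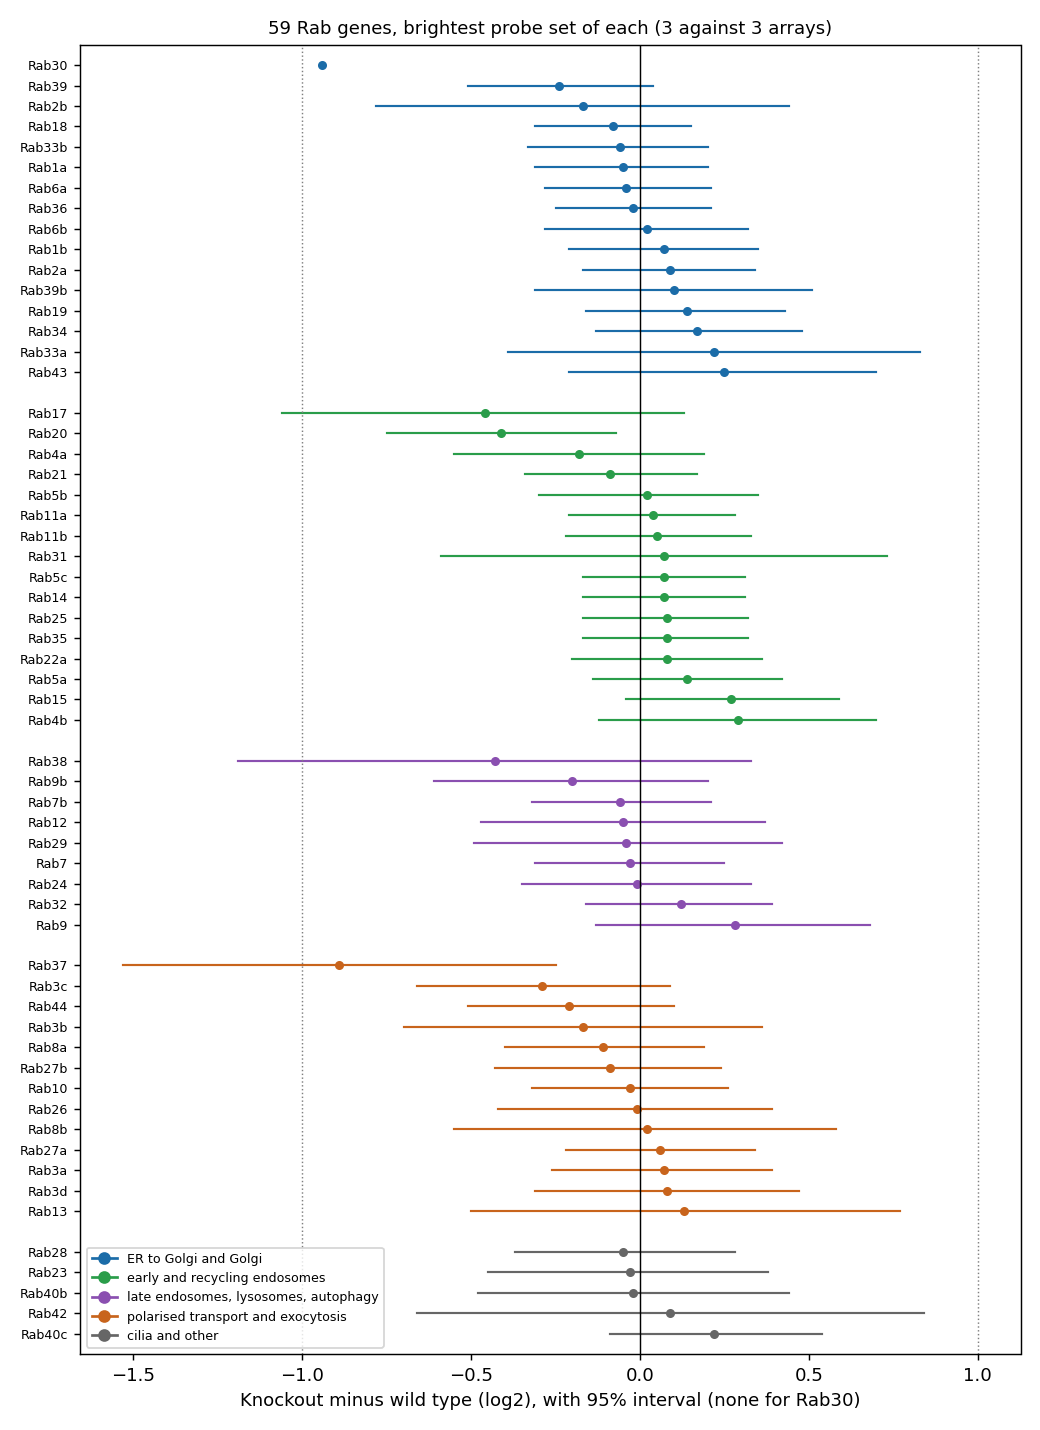
Difference between knockout and wild type (log2) for the brightest probe set of each of the 59 Rab genes, with its 95% interval except for Rab30, grouped by the main site of the protein; dotted lines mark a 2-fold change. Of the 58 intervals drawn, 55 stay within the dotted lines, and those of Rab37 and Rab20 lie below 0.

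Rab37, a Rab of regulated exocytosis, was the member besides Rab30 with the lowest difference. Its brightest probe set read 5.37, 4.95 and 5.33 in the knockouts and 5.51, 6.51 and 6.31 in wild type. Wild type 5 and 6 were high, and wild type 4 exceeded the nearest knockout only slightly. The difference was -0.89 (SE 0.27, 95% interval -1.53 to -0.25, limma adjusted p = 0.953), 1.85-fold lower. Its other probe set, at a similar level, read 5.20, 5.23 and 5.48 against 5.49, 6.31 and 5.54, a difference of -0.47. Here only wild type 5 stood out, and the other wild-type readings all but touched the highest knockout. Rab37 was the only member whose groups did not overlap in 2 probe sets. Its difference was -0.69 without wild type 5, -0.79 without wild type 6 and -1.19 without wild type 4.

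Markers of T cells read lower in the knockouts too, with 9 of 9 differences below 0. Their summed level was 8.64 to 9.10 against 9.12 to 10.04 in wild type. The summed level of 4 endothelial markers was also lower (5.27 to 5.51 against 5.62 to 6.39). Of these 4 markers, 0 lay above the array median in every wild-type array. Pecam1 differed by -1.0, but Cdh5, Kdr and Tek by only -0.17, -0.16 and -0.19. The T cell levels nearest each other were 9.10 in knockout 3 and 9.12 in wild type 5. All 8 B and plasma cell markers differed below 0 (8.56 to 9.37 in summed level against 8.44 to 12.02), as did 5 of 6 fibroblast markers (7.67 to 8.76 against 8.59 to 9.79), and in both lists the groups overlapped. Of 5 smooth muscle markers 4 differed below 0, and the groups overlapped (8.31 to 8.55 against 8.20 to 9.10). Macrophage markers did not read lower as a list. Their summed level was 8.79 to 9.13 in the knockouts against 8.30 to 9.08, with 2 of 5 differences above 0. Among them Cd14 was higher in the knockouts without overlap (difference 0.48). The part of these cell types in the Rab37 and Rab20 values was not tested.

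Rab20, which is found on endosomes and phagosomes, is read by 1 probe set. It gave 8.34, 8.35 and 8.52 in the knockouts and 9.03, 8.59 and 8.82 in wild type. Every wild-type array was higher, wild type 5 by the smallest margin. The difference was -0.41 (SE 0.14, 95% interval -0.75 to -0.07, limma adjusted p = 0.953), and -0.52 to -0.31 with any 1 array left out. Unlike Rab30 it was well within the bright part of the array, at percentiles 81.7 to 85.0 in wild type.

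Rab17, an epithelial Rab of transcytosis and apical recycling, hung on 1 wild-type array. Its brightest probe set read 7.84, 7.96 and 7.91 in the knockouts and 8.60, 8.73 and 7.77 in wild type. Wild type 4 and 5 were above every knockout, and wild type 6 was below them all. The other probe set had the same order, with 5.48, 5.64 and 5.63 against 6.21, 6.29 and 5.04. The difference was -0.46 (SE 0.25, limma adjusted p = 0.953) with all arrays and -0.76 without wild type 6, the array with the highest B cell, T cell and fibroblast marker levels. It was -0.28 without wild type 5. In the second probe set it was -0.26.

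Rab39 and Rab44 did not overlap between groups but differed little and were dim. Rab39 read 2.41, 2.24 and 2.28 in the knockouts and 2.68, 2.47 and 2.50 in wild type (difference -0.24, SE 0.11). Rab44 read 3.83, 3.81 and 3.73 against 3.88, 3.90 and 4.20 (difference -0.21, SE 0.13), and without wild type 6 its difference was -0.10. The Rab39 readings were at percentiles 2.8 to 7.1 of the wild-type arrays and those of Rab44 at 27.5 to 31.4.

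Promoter sequence is shown for Rab17 and Rab20, the members above the array median with the lowest differences among those matched. RefSeq promoters of build GRCm38.p6 were matched for 48 of the 59 genes (60 promoters). The promoters of a chromosome were left out before matching, so its genes count as not matched. Rab30 and Rab37 were among those not matched. TCF/LEF factors, the DNA-binding partners of beta-catenin, bind sites around CTTTGAT and CTTTGTT, and these 7 bases were searched on both strands (ATCAAAG and AACAAAG on the other) from 250 bases before to 50 after each start. Such letters were found in 2 of 60 Rab promoters, or 3.33%, those of Rab17 (2 matches) and Rab15, beside 9.33% of the 32851 promoters searched. A match describes letters and is not a binding site. The 250 bases before the start of each gene follow, 5′ to 3′ on the minus strand, with matches in capitals, at chr1:90967668-90967917 for Rab17 and chr8:11478641-11478890 for Rab20.
Rab17: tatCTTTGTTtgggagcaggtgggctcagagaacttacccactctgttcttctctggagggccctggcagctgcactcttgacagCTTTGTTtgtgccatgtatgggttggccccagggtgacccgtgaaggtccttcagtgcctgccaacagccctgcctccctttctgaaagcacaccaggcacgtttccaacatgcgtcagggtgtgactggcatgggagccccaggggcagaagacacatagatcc
Rab20: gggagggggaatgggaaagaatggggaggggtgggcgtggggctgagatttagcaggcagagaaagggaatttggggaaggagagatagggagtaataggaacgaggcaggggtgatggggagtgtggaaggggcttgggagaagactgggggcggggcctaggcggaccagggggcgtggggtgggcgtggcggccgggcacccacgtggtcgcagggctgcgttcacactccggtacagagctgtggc
The Rab17 stretch holds both of its matches, each CTTTGTT, and the Rab20 stretch holds 0. G and C made up 56.8% of the first and 65.2% of the second.

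The Rabs between the endoplasmic reticulum and the Golgi held the brightest members. RAB1A acts in transport from the endoplasmic reticulum to the Golgi, and its brightest probe set read 12.61, 12.74 and 12.83 in the knockouts and 12.76, 12.77 and 12.81 in wild type, at percentiles 99.1 to 99.2 of the wild-type arrays. RAB2A acts at the same step and its probe set read 12.35, 12.55 and 12.53 against 12.36, 12.39 and 12.43. In both genes the groups overlapped, and the intervals of the differences were -0.31 to 0.20 for Rab1a and -0.17 to 0.34 for Rab2a. Of the 16 genes of this group 9 were above the array median in every wild-type array. Their median difference was -0.001, and 8 lay above 0 and 8 below. Rab43 differed by 0.25 (SE 0.19) and Rab34 by 0.17 (SE 0.13). With 1 array left out these were 0.14 (without knockout 1) to 0.45 (without knockout 2) for Rab43 and 0.08 (without knockout 3) to 0.27 (without knockout 2) for Rab34. Rab43 was 0.15 without knockout 3.

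All 16 Rabs of early and recycling endosomes lay above the array median in every wild-type array. Their median difference was 0.070, with 12 above and 4 below 0. All genes above the array median in every wild-type array had a median of 0.038, with 6214 of 10464 above 0. RAB5A, which drives fusion of early endosomes, had readings of 9.29, 9.03 and 9.26 in the knockouts and 9.04, 9.12 and 9.0 in wild type. Rab25 lay between 10.97 and 11.04 in the knockouts and read 11.01, 10.91 and 10.86 in wild type, and Rab11a read 11.22, 11.09 and 11.16 against 11.06, 11.18 and 11.11. The groups overlapped in each of these, with differences of 0.14 (95% interval -0.14 to 0.42), 0.08 (-0.17 to 0.32) and 0.04 (-0.21 to 0.28).

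The highest differences of this group were those of Rab4b, also the highest of the family, and Rab15. RAB4B acts in rapid recycling, and its gene read 8.54, 8.06 and 7.98 against 7.78, 7.95 and 7.98, where knockout 1 was high. The difference was 0.29 (SE 0.17), 0.12 without knockout 1, and with the number of mice in the pool as a covariate, which sets knockout 1 alone against wild type, 0.64. Rab15 read 11.14, 10.97 and 11.15 against 11.01, 10.80 and 10.64, a difference of 0.27 (SE 0.13) that was 0.18 without wild type 6. The limma adjusted p was 0.953 for both. Rab14, between the Golgi and endosomes, spanned 11.37 to 11.53 over the knockouts and 11.35 to 11.40 over wild type.

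Among the 9 Rabs of late endosomes, lysosomes and autophagy 7 were above the array median in every wild-type array. Rab7, which directs late endosomes to lysosomes, read 11.28, 11.54 and 11.57 in the knockouts and 11.46, 11.48 and 11.54 in wild type (difference -0.03, 95% interval -0.31 to 0.25). Rab9, of transport from late endosomes to the Golgi, read 9.75, 9.42 and 10.04 against 9.38, 9.58 and 9.41 (difference 0.28, SE 0.17). The Rab9 difference was 0.13 without knockout 3 and 0.43 without knockout 2. Neither pair of groups was free of overlap. Rab9b was dim in all arrays, with 2.35 to 2.50 against 2.28 to 2.85. The median difference of the 9 was -0.036, with 2 above and 7 below 0.

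Of the 13 Rabs of polarised transport and exocytosis 10 were above the array median in every wild-type array. Rab8a, of apical delivery, read 9.61, 9.74 and 9.94 in the knockouts and 9.86, 9.94 and 9.82 in wild type. Rab10, of basolateral sorting, read 11.35, 11.66 and 11.63 against 11.54, 11.60 and 11.57. Their differences were -0.11 (95% interval -0.40 to 0.19) and -0.03 (-0.32 to 0.26). For the granule Rabs, Rab27a differed by 0.06 (-0.22 to 0.34), Rab27b by -0.09 (-0.43 to 0.24) and Rab3d by 0.08 (-0.31 to 0.47). Rab26, of secretory granules, was dim, at 3.94 to 4.44 (knockouts) and 4.04 to 4.41 (wild type). Rab3c, also dim at percentiles 39.0 to 43.8 of the wild-type arrays, differed by -0.29 (SE 0.16), or -0.19 without knockout 1. Its other, dimmer probe sets differed by -0.18 to 0.11. The group's median was -0.027, with 5 above and 8 below 0.

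In the remaining group of 5, Rab40c, a Rab with a SOCS box that joins a ubiquitin ligase, differed by 0.22 (SE 0.13). The other 4 (Rab23, Rab28, Rab40b and Rab42) differed by -0.05 to 0.09. By the brightest probe set of each gene, the dimmest members besides Rab39, Rab9b and Rab44 were Rab39b (3.35 in wild type) and Rab36 (3.85). The level of a probe set also depends on its probes, so these positions are not an order of transcript amounts.

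**Figure D3:**
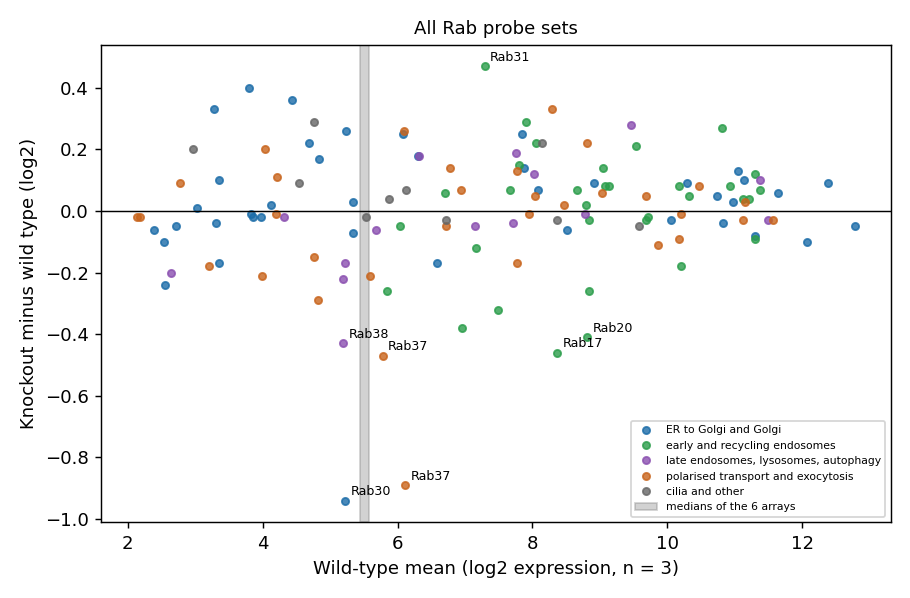
Difference between knockout and wild type (log2) against the wild-type mean (log2 expression, n = 3) for the 132 Rab probe sets, coloured by the site of the protein; the grey band spans the medians of the 6 arrays and names mark differences beyond 0.4. The median size of a difference is 0.09, with Rab30 (-0.94) left of the band, Rab37 (-0.89) just to its right and 1 Rab31 probe set (0.47) highest.

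Agreement between probe sets could be read for the 38 Rab genes that have more than 1. All probe sets of a gene differed in 1 direction for 16 of them, or 42.1%, against 47.2% of the 9012 such genes on the array. Of the 16, 10 were lower and 6 higher throughout. The span between the lowest and highest difference within a gene had a median of 0.182 in the Rab genes and 0.224 in all genes, and was under 0.2 for 21 of the 38 (55.3%; 45.0% of all genes). With only probe sets above the array median in every wild-type array, 25 Rab genes could be compared, and their median span was 0.129 (0.176 in all genes). Of these 25, 8 had 1 direction throughout, or 32% (56.2% of all genes). Probe sets of a gene share arrays and RNA and are not replicates.

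Rab30 had the widest span, 0.89, from -0.94 to -0.05. Rab14 spanned 0.50 over 7 probe sets, of which the 4 brightest stayed between -0.03 and 0.12 and the dimmer ones reached -0.38. Rab31, a Rab between the Golgi and endosomes, had its brightest probe set at 0.07 and the other at 0.47, the highest difference of any Rab probe set. Rab2b spanned 0.43, Rab37 and Rab6b 0.42 each. In Rab6b 1 of 4 dim probe sets differed by 0.40 and the others by -0.02 to 0.02. In Rab1a the dim probe set (4.43 in wild type) differed by 0.36 and the bright ones by -0.05 and 0.05. At the other end, the 3 probe sets of Rab10 differed by -0.03 to 0.03 and both of Rab11a by -0.03 and 0.04. The wild-type levels of a gene's probe sets were 1.61 apart at the median and furthest apart in Rab2a, where 1 probe set read 2.39 and the others at least 10.98.

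**Figure D4:**
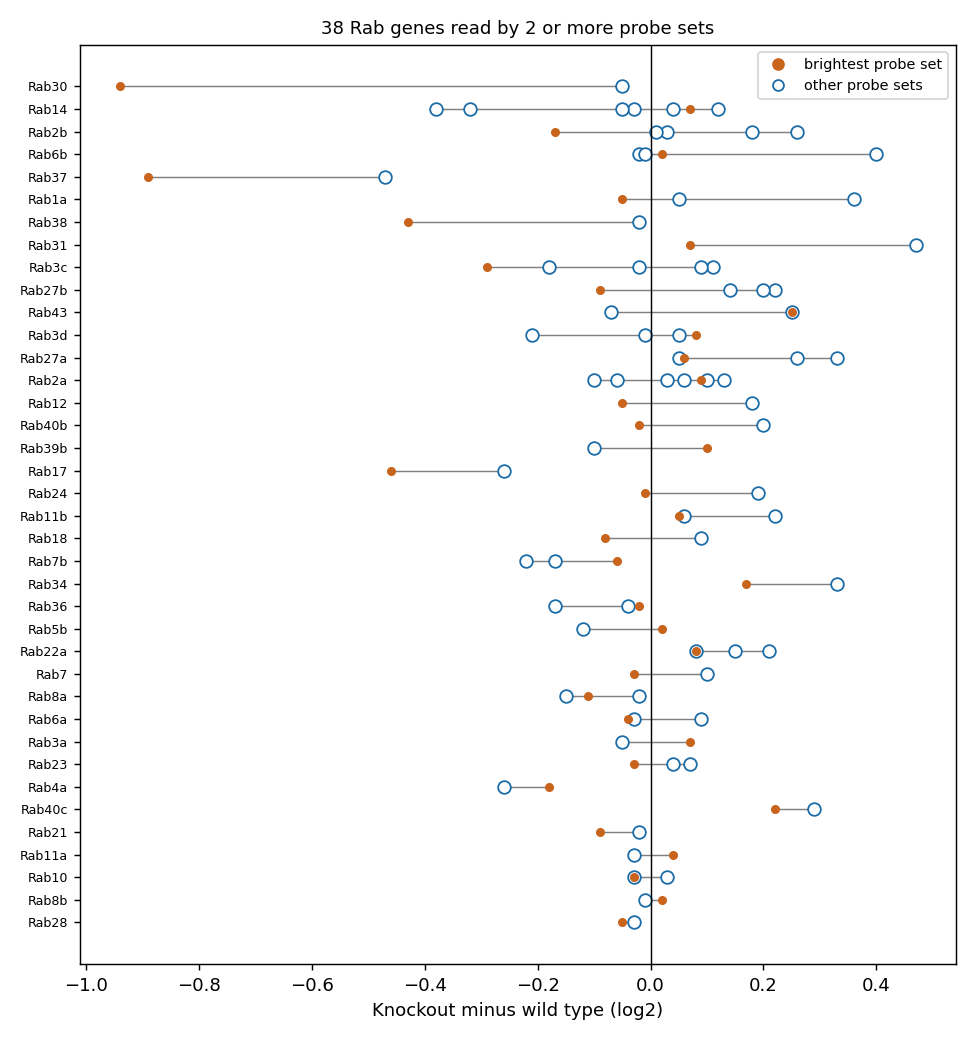
Difference between knockout and wild type (log2) in every probe set of the 38 Rab genes that have more than 1, ordered by the span within the gene; filled orange circles are the brightest probe set. Rab30 (-0.94 and -0.05) has the widest span at the top, and Rab37 (-0.89 and -0.47) and Rab17 (-0.46 and -0.26) lie wholly left of 0.

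Over single probe sets, 8 of 132 (6.06%) were lower in the knockouts without overlap, beside 4.78% of all probe sets, and 2 (1.52%) were higher, beside 4.92%. The 8 include the Rab30 probe set that led to the family, so nothing is read from these counts. The 2 higher ones belonged to Rab27a (0.26) and Rab27b (0.22), which dock secretory granules at the plasma membrane. In Rab27a all 4 probe sets were above 0, from 0.05 to 0.33. In Rab27b the brightest was -0.09 and the other 3 were 0.14 to 0.22, so the mean of its probe sets was 0.12 where the brightest gave -0.09. Besides the 5 genes above, the 8 lower probe sets were the second one of Rab37, the dimmest of Rab3d (difference -0.21) and the dimmest of Rab7b (-0.22).

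The proteins that control Rabs were examined as 4 lists, and limma called 0 of their genes. The list of prenylation and recycling factors, some of which attach the lipid anchor or carry Rabs between membranes, had mean differences close to 0. All 11 measured genes were above the array median in wild type, and their differences ran from -0.10 to 0.08 with all arrays. Over single arrays the level of the list, relative to each gene's mean, ran from -0.17 in wild type 6 to 0.16 in wild type 5. Gdi2, a GDP dissociation inhibitor, spanned 12.35 to 12.39 over the knockouts and 12.38 to 12.40 over wild type. No gene was without overlap in either direction with all arrays. Without wild type 6 there was 1 of 11 lower (13.3% of all genes), and Chml, which encodes a Rab escort protein, differed by -0.30 in place of -0.03.

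The 40 exchange factors had a median of 0.026, with 2 lower and 3 higher without overlap, where 4.83% and 5.50% of all genes were so. Without wild type 6 the counts were 3 and 5, where the shares of all genes were 13.3% and 8.98%. Rin3, an exchange factor of the Rab5 subfamily, read 4.08, 4.56 and 4.30 in the knockouts and 4.89, 5.20 and 5.72 in wild type. Every wild-type array was higher and wild type 6 highest, for a difference of -0.95 (SE 0.23, limma adjusted p = 0.953) and -0.73 without wild type 6. Dennd1c differed by -0.39 (SE 0.11). On the higher side were Hps4 (0.48, SE 0.19), Ccz1, of the Rab7 exchange complex (0.28, SE 0.11), and Hps1 (0.33, SE 0.14), whose other probe sets differed by -0.48 to 0.17. Dennd4b differed by -0.72 with all arrays and -0.27 without wild type 6.

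GTPase-activating proteins had a median of 0.121, with 24 of 37 above 0. Of the 37, 32 were above the array median in every wild-type array. All genes so placed had a median of 0.038, with 6214 of 10464 above 0. In the list 9 were higher and 2 lower without overlap, where 5.50% and 4.83% of all genes were so. Without wild type 6 these counts were 9 and 4, where 8.98% and 13.3% were so. Tbc1d2b differed by 0.45 (SE 0.16), Tbc1d23 by 0.41 (SE 0.15) and Sgsm3 by 0.37 (SE 0.13). Other Tbc1d23 probe sets gave 0.20 and, at a dim one, -0.19. On the lower side Tbc1d8 differed by -0.27 (SE 0.11), Tbc1d14 by -0.27 (SE 0.18; -0.10 without wild type 6) and Tbc1d4 by -0.17 (SE 0.10). Each had a limma adjusted p of 0.953 or 0.954. The level of the list was lowest in wild type 6 (-0.12, relative to each gene's mean over the arrays) and highest in knockout 1 (0.11).

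Rab effectors had a median of 0.090, with 31 of 45 above 0. Of the 45, 37 were above the array median in every wild-type array. All genes so placed had a median of 0.038, with 6214 of 10464 above 0. In the list 7 were higher and 0 lower without overlap, where 5.50% and 4.83% of all genes were so. Leaving out wild type 6 gave 8 higher and 2 lower, where 8.98% and 13.3% were so. The level of the list was lowest in wild type 6 (-0.15, relative to each gene's mean) and highest in knockout 1 (0.08). The adaptor gene Rab11fip5, whose protein binds RAB11, read 7.34, 7.65 and 7.80 in the knockouts and 6.79, 6.25 and 6.74 in wild type. All knockouts were higher, for a difference of 1.00 (SE 0.19, limma adjusted p = 0.953) and 1.08 without wild type 6. Its other, dimmer probe set differed by 0.42. Rab11fip4, of the same adaptor family, read 8.65, 8.94 and 9.07 against 8.23, 8.09 and 8.38, a difference of 0.65 (SE 0.15, limma adjusted p = 0.953). Its other probe sets differed by 0.41 and -0.01. Unc13d, which primes granules for release, differed by 0.56 (SE 0.23). On the lower side, Rims1 differed by -0.26, Mical1 by -0.32 (-0.04 without wild type 6) and Rilpl1 by -0.25 (0.00 without wild type 6). Rab11a and Rab25, which are among the Rabs that the Rab11 adaptors bind, differed by 0.04 and 0.08.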

How the data were processed

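The authors' deposited values are log2 expression from RMA, which background-corrects, quantile-normalizes and summarises the probes of each probe set, per the labels; the RMA version is not stated in the labels. Per the labels' protocols, epithelium was released with EDTA (3 mM) and DTT (0.05 mM) over 1.5 to 2 h, and 30 ng of RNA pooled from 2 or 3 mice was amplified. Quantile normalization fixes each array's overall distribution, so a shift common to all genes cannot be seen. Array medians were 5.44 to 5.58 and correlations between arrays 0.975 to 0.990.

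Platform annotation gave 1 symbol for 34958 probe sets, several for 932 and none for 9211. The brightest probe set (highest mean over the 6 arrays) stood for each gene. Knockout and wild type were compared with limma 3.58.1 (lmFit, eBayes) in R 4.3.3, tested on simulated data, and p-values were adjusted by Benjamini-Hochberg over every gene or probe set tested, at a threshold of 0.05. Separate pools are the replicates. The members, lists and roles were chosen with earlier results of these data known. Genes named with values were Rab30, the 6 other members with the smallest p in each direction, and textbook polarised, secretory and core Rabs. Also named were the 5 members with the widest span between probe sets and those without overlap in 2 probe sets. The 5 highest and 5 lowest in wild type were named too. From each regulator list up to 3 genes in each direction were taken by p. Rab31, single markers of other cells and genes listed as members of a count were named after their values were seen. Alternatives were other probe-set rules, cyclic loess, array weights, a trend with robust fit, the number of mice as a covariate and leaving out each array. Role assignments follow textbook knowledge and some are debated.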

Additional observations from a re-analysis of the deposited data

How the results depend on the processing

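No Rab gene or probe set was called at a limma adjusted p under 0.05 with any alternative tried (0 in 13 for genes and in 11 for probe sets). Over all genes tested limma called 3 without wild type 6, 1 with the number of mice as a covariate and 0 with the other alternatives; none of these was a Rab gene. The median difference of the Rab genes was -0.010 and stayed between -0.049 and 0.046. The highest value, 0.046, came with the brighter genes only (42 members, without Rab30). There the median of all genes was 0.048, beside 0.010 in the main fit. Leaving out 1 array gave Rab medians of -0.042 to 0.018. The number of genes whose probe sets had 1 direction was 16 of 38, 10 of 27 with the brighter probe sets only, and 16 to 20 with 1 array left out. Without wild type 6, an alternative chosen after seeing the data, 11 Rab genes in place of 5 were lower without overlap and 2 in place of 0 were higher. The shares of all genes rose as well, from 4.83% to 13.3% lower and from 5.5% to 8.98% higher. Nothing is read from these counts. The Rab30 difference was -1.04 with the number of mice as a covariate and -0.50 as the mean of its probe sets. The cause of these shifts was not tested. No paired analysis was possible because the groups share no replicate number. With 3 arrays a group, the median 95% interval of a Rab gene reached 0.316 to either side on the log2 scale, and dim probe sets have no detection call here.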
